A study of Mus musculus with 16 samples.

Results

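The insulin and insulin-like growth factor (IGF) signalling components described here are the ligand Igf1, the binding proteins Igfbp3 and Igfbp5, the receptors Insr and Igf1r, the adaptors Irs1 and Irs2, the lipid kinase subunit Pik3r1 and the kinases Akt1 and Akt2. Of these 10 genes, 9 were matched by 20 array probes through the RefSeq accession of the probe, among 24828 genes tested. No probe accession led to Irs2, which has no value here. The tissue was the tibialis anterior, a mainly fast-twitch leg muscle, of mouse offspring in 4 groups. Undernourished CR offspring were born to dams given 50% less food in week 3 of gestation and were themselves calorie restricted (CR), and undernourished AL offspring of such dams were fed ad libitum (AL). Control CR and control AL offspring were born to dams whose food was not restricted. Each group had 8 mice whose RNA was pooled in pairs, giving 4 arrays per group and 16 in all. The strain, sex and age of the mice, the degree and length of the calorie restriction, and the litters behind each pool are not given in the sources used here. Pools enter the tests as separate samples, although maternal diet acted on dams and pools may share a litter.

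Insulin and IGF-1 bind related receptor tyrosine kinases at the cell surface, which phosphorylate adaptor proteins of the IRS family. The adaptors recruit phosphoinositide 3-kinase (PI3K), whose lipid product activates the AKT kinases, and AKT in turn drives glucose uptake, glycogen synthesis and, through the mTORC1 complex, protein synthesis. Binding proteins in the tissue fluid hold IGF-1 and set how much of it reaches the receptor. In skeletal muscle the pathway is known for its part in insulin-stimulated glucose uptake and in the control of fibre size.

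In control offspring, CR muscle had higher Igfbp5, Irs1, Akt1 and Akt2 signals and a lower Igf1r signal than AL muscle. These 5 of 9 measured genes passed the test, 4 higher and 1 lower, where 32.3% of all genes tested did, 17.2% higher and 15.1% lower. In undernourished offspring, Igf1r was again lower in CR than in AL muscle and was the only 1 of the 9 to pass, where 20.3% of all genes did, 10.4% higher and 9.86% lower. None of the 9 passed when the offspring of undernourished dams were set against controls within either diet, or in the test of whether the response to restriction depended on maternal diet, in which 0.00403% of all genes passed. The lower Igf1r signal kept its call in both comparisons whichever single array was left out. The higher Igfbp5, Irs1 and Akt1 signals did not, and the second probes of Igfbp5 and Irs1 did not show them. In control offspring the other 2 Igf1r probes were not called either, and neither was the mean of the Igf1r probes. The Akt2 call held in the same fits. It was lost when brain transcripts, described below, were added as a covariate, and without the control AL arrays highest in them. The calls also depended on the values used. With the authors' deposited table, whose normalization is not stated, Igf1r passed in neither comparison. Igf1, Igfbp5, Akt1 and Akt2 were called higher there in undernourished CR. With those values 11848 of all 24828 genes were called in undernourished offspring, 87.1% of them higher.

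Values are log2 signals relative to the 75th percentile of the same array, so that 0 is the signal of a probe at that percentile. Levels of different genes are not comparable on this scale, because each probe has its own response. Differences are log2 differences with their standard error from limma's moderated test, and a gene was called at a Benjamini-Hochberg adjusted p under 0.05 over all genes tested. All 20 probes were well above background on all 16 arrays. In bulk muscle, fewer cells of a type and less RNA per cell cannot be told apart.

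Several features of the arrays touch every comparison of the diets. AL and CR arrays lay on different slides scanned on different days (AL on slides 1 and 2, CR on slides 3 and 4), so offspring diet, slide and scan day cannot be told apart. The 14 fast muscle markers, such as Ckm and Acta1, were well above background on every array. Their medians were 8.69 to 9.16 in undernourished CR, 9.24 to 9.45 in undernourished AL, 8.89 to 9.14 in control CR and 8.97 to 9.39 in control AL. Between CR and AL, 5 of the 14 were lower in undernourished offspring, where 9.86% of all genes were. In control offspring 2 were lower and 1 higher, against 15.1% and 17.2% of all genes. Brain transcripts were also present on the AL arrays. The median of 21 brain markers was -6.74 to -5.97 in undernourished CR, -2.33 to -0.97 in undernourished AL, -6.66 to -6.32 in control CR and -1.67 to 0.93 in control AL. Of these, 8 were not well above background on any undernourished CR array (Nefl, Nefm, Gria1, Slc1a2, Gad1, Gad2, Mog and Sncb). On the control CR arrays 7 were above it on none (Nefm, Snap25, Gria1, Ncan, Slc1a2, Gad1 and Gad2). In undernourished AL, Mog and Sncb were above it on no array. On all arrays of a group, 8 markers were well above background in undernourished CR, 9 in control CR, 14 in undernourished AL and 19 in control AL. Between CR and AL, 13 of the 21 were lower in undernourished and 19 in control offspring, and 1 was higher in each. Of 15 skin markers, 13 were lower in control CR than in control AL and none passed in undernourished offspring. Of 13 leukocyte markers, 1 was lower in undernourished CR and 10 in control CR, and of 12 fibroblast markers 4 and 7 were. The part of these transcripts in the results below was not tested, and for genes whose call ended when arrays were left out or brain transcripts were added as a covariate, values from such fits stand beside the result or the calls kept are counted.

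**Figure D1:**
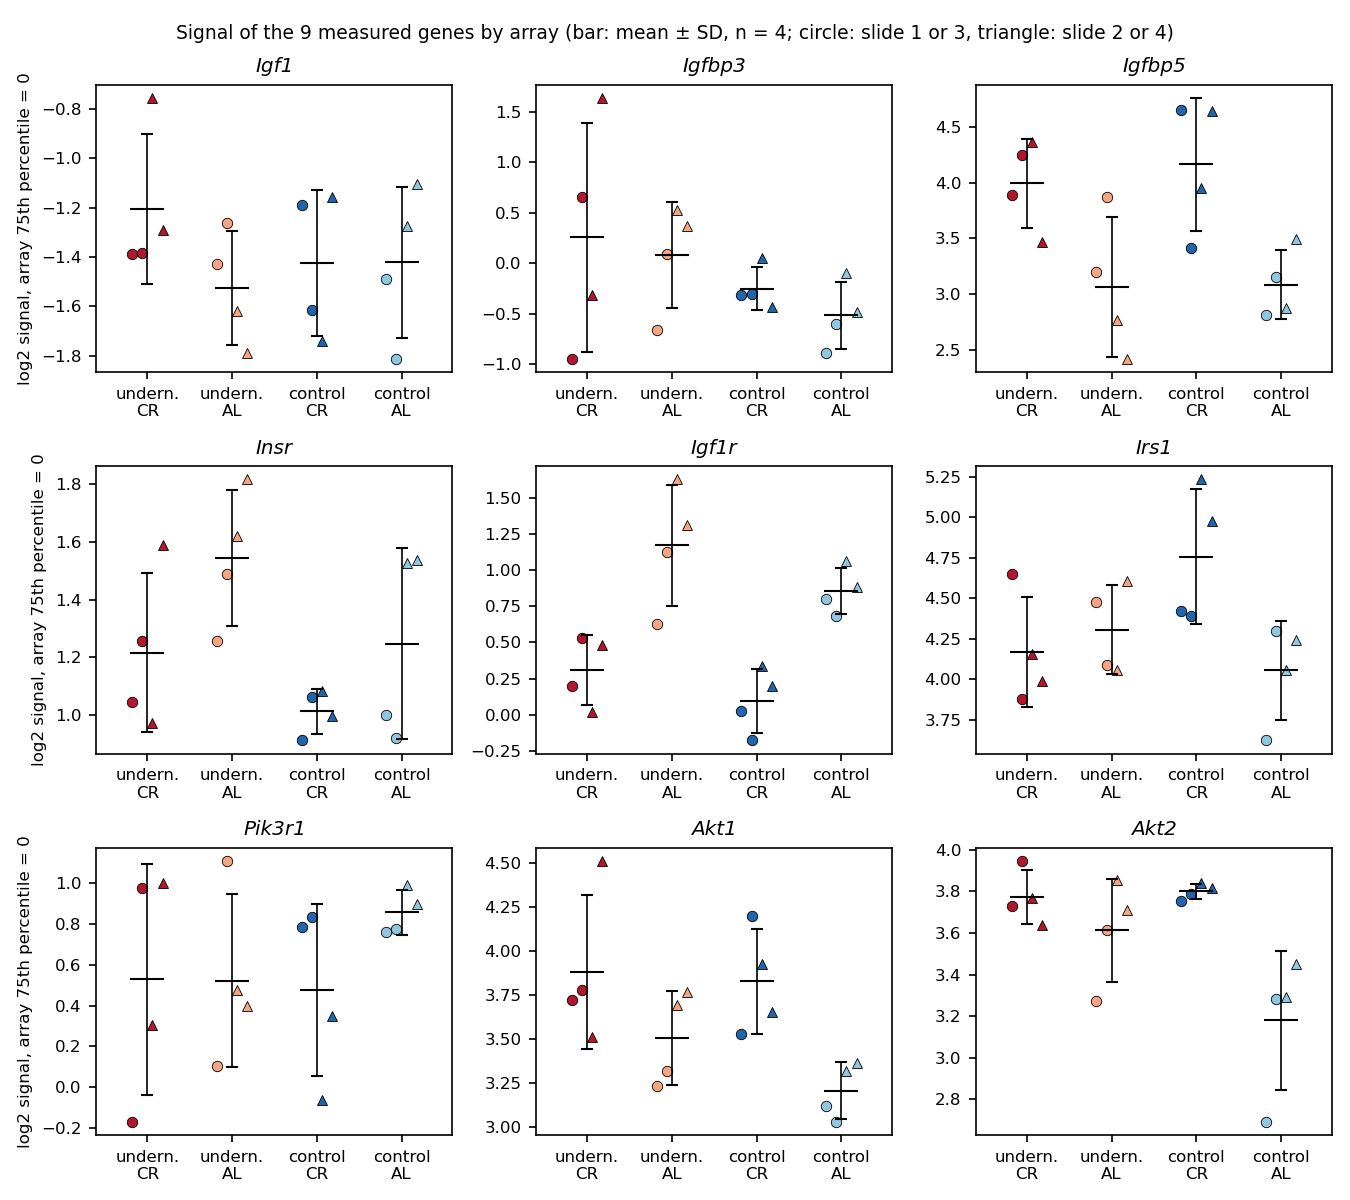
Log2 signal relative to the array's 75th percentile (vertical axis, scaled separately for each gene) on all 16 arrays, by group, with the mean and SD of 4 arrays. All CR arrays lie below all AL arrays for Igf1r in both offspring groups, and the control CR arrays lie above the control AL arrays for Irs1, Akt1 and Akt2.

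Igf1 encodes the growth factor itself, which muscle makes for local use as well as receiving it from liver. Its signal averaged -1.20 ± 0.30 in undernourished CR, -1.53 ± 0.23 in undernourished AL, -1.42 ± 0.30 in control CR and -1.42 ± 0.31 in control AL (SD, n = 4 each). The groups overlapped in every comparison. CR minus AL was 0.32 ± 0.20 in undernourished offspring (limma adjusted p = 0.269) and -0.0036 ± 0.20 in control offspring (adjusted p = 0.992, 95% interval -0.43 to 0.42). The undernourished CR value rests in part on replicate 3, at -0.75, while the other 3 arrays stood between -1.39 and -1.29. A second Igf1 probe gave 0.70 and 0.27, and neither passed (adjusted p = 0.076 and 0.461). With the values of the authors' deposited table, Igf1 was called higher in undernourished CR (0.69, adjusted p = 0.00273) and not in control CR (0.36, adjusted p = 0.074).

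Igfbp3 encodes the main IGF carrier of plasma, also secreted in tissues. It varied most among the 9 genes within undernourished CR muscle, where replicates 1 to 4 stood at -0.95, 0.66, -0.32 and 1.64. The undernourished AL arrays stood at -0.66, 0.09, 0.53 and 0.37, the control CR arrays at -0.32, -0.30, 0.05 and -0.44, and the control AL arrays at -0.89, -0.60, -0.09 and -0.48. All groups overlapped. CR minus AL was 0.18 ± 0.43 in undernourished and 0.26 ± 0.43 in control offspring (limma adjusted p = 0.806 and 0.674). The 95% intervals were wide, -0.74 to 1.09 and -0.65 to 1.18.

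Igfbp5 encodes the IGF binding protein best known from muscle, where it binds IGFs and extracellular matrix. Its brighter probe read 3.89, 4.25, 4.36 and 3.47 on the undernourished CR arrays, against 3.20, 3.87, 2.77 and 2.42 on the undernourished AL arrays. On the control CR arrays it read 4.65, 3.42, 3.95 and 4.64, against 2.81, 3.15, 2.88 and 3.49 on the control AL arrays. In each pair of groups the means lay apart but the lowest CR array fell below the highest AL array. Igfbp5 rose in control CR, by 1.08 ± 0.33 or 2.12-fold (limma adjusted p = 0.0216). In undernourished offspring the difference was 0.93 ± 0.33 and did not pass (adjusted p = 0.0603). The call in control offspring was lost without control AL replicate 1 (0.99, adjusted p = 0.062) or 3 (1.01, adjusted p = 0.0511), and without control CR replicate 1 (0.92, adjusted p = 0.0688) or 4 (0.92, adjusted p = 0.0667). The call in undernourished offspring appeared without control CR replicate 2 (0.93, adjusted p = 0.0454), undernourished AL replicate 2 (1.20, adjusted p = 0.022) or undernourished CR replicate 4 (1.103, adjusted p = 0.0428). It also appeared with the values of the authors' deposited table (1.504, adjusted p = 0.00108). The dimmer Igfbp5 probe pointed the other way, at -0.58 ± 0.32 in undernourished and -0.62 ± 0.32 in control offspring, and passed in neither (adjusted p = 0.215 and 0.152). The probes thus disagreed in direction, and the rise belongs to the brighter probe.

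Among the 3 genes whose sequence just before the transcription start is shown, because they passed the test in a comparison of the diets and have 1 start in the table, Igfbp5 alone held the letters TATTTAA. The sequences come from RefSeq on GRCm38.p6, a build other than that of the array design, and each runs 5′ to 3′ on the strand of its gene over the 250 bases before the start. Capitals in the Igf1r and Irs1 sequences mark GGGCGG, the core of the GC box bound by SP1-type factors. The capitals nearer the start of Irs1 mark an E-box, which was searched as CACGTG. The capitals in the Igfbp5 sequence mark its TATA-like run.
Igf1r, chr7:67952007-67952256, plus strand: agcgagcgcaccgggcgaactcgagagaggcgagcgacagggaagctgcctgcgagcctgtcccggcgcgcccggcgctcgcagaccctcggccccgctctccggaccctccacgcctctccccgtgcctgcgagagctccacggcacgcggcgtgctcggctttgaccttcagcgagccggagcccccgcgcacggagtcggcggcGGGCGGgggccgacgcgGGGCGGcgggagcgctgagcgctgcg
Irs1, chr1:82291440-82291689, minus strand: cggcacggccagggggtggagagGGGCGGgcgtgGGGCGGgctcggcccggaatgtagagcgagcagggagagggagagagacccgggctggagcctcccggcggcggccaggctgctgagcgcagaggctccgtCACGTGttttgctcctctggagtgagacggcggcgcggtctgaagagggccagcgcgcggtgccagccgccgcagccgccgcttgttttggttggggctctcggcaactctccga
Igfbp5, chr1:72874866-72875115, minus strand: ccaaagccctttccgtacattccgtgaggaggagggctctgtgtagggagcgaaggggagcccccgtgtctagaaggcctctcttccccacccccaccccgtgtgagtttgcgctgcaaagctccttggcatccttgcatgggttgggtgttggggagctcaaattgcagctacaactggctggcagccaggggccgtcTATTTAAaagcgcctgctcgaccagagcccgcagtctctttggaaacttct
The Igf1r sequence was 77.6% G and C, that of Irs1 72.4% and that of Igfbp5 58.8%. Both GC boxes of Igf1r lay close to the start, 37 and 20 bases before it, while those of Irs1 lay 221 and 210 bases before it and its E-box 109 bases before it. Over the same 250 bases of 32851 promoters, searched on both strands, 32.7% held the GC box and 6.02% the E-box. The TATA box, TATAAA, was in 12.4%. The core of the site bound by FoxO factors, which AKT keeps out of the nucleus, was searched as TGTTTAC and was in 3.17%. The TATA-like run was added to the search after the Igfbp5 sequence had been seen to lack the TATA box, and was in 4.18%. Of the 14 promoters listed for the 10 genes (none for Insr), 6 held the GC box, 2 the E-box, 2 the TATA-like run, 1 the TATA box and 1 the FoxO core, before a start of Akt1. Motifs do not overlap one another in the sequences shown, and a match is a description of the letters only.

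Insr encodes the insulin receptor. Its signal averaged 1.22 ± 0.28 in undernourished CR, 1.55 ± 0.24 in undernourished AL, 1.01 ± 0.08 in control CR and 1.25 ± 0.33 in control AL (SD, n = 4 each). CR minus AL was -0.33 ± 0.18 in undernourished and -0.23 ± 0.18 in control offspring, with overlapping arrays, and neither passed (limma adjusted p = 0.203 and 0.341). With an index of brain transcripts (the mean linear signal of the brain markers of an array) as a covariate, the difference in control offspring was -0.56 and passed (adjusted p = 0.0336), and with the index restricted to brain markers low on CR arrays it was -0.63 (adjusted p = 0.0444), with -0.41 in undernourished offspring (adjusted p = 0.0475). With the values of the authors' deposited table the sign turned, to 0.24 in undernourished and 0.27 in control offspring, and neither passed (adjusted p = 0.181 and 0.126). A second Insr probe gave -0.30 and 0.05, and neither passed.

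Igf1r encodes the IGF-1 receptor, the closest relative of the insulin receptor. Its brightest probe read 0.20, 0.53, 0.02 and 0.49 in undernourished CR, against 0.63, 1.12, 1.63 and 1.31 in undernourished AL. It read 0.02, -0.18, 0.34 and 0.20 in control CR, against 0.80, 0.68, 1.06 and 0.88 in control AL. In both offspring groups every CR array lay below every AL array, a pattern shared by 12.6% of all genes in undernourished and 14.5% in control offspring. Igf1r fell by 0.86 ± 0.19 on the log2 scale in undernourished CR, which is 1.82-fold (limma adjusted p = 0.00698), and fell by 0.76 ± 0.19 in control CR, which is 1.69-fold (adjusted p = 0.00796). The 2 falls differed by -0.10 ± 0.27 in the interaction test (adjusted p = 0.911), with a 95% interval of -0.69 to 0.48.

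The Igf1r calls held in all 16 fits that left out a single array, with differences of -1.05 to -0.71 in undernourished and -0.84 to -0.67 in control offspring. In the authors' deposited table of log2 values, in which the median of all genes was higher in CR than in AL arrays by 0.24 in undernourished and 0.29 in control offspring, Igf1r was -0.31 and -0.27 and passed in neither (adjusted p = 0.18 and 0.218). Of the other 2 Igf1r probes, the dimmest was called lower in undernourished CR, at -0.92 ± 0.25 (adjusted p = 0.018), and not in control CR, at -0.26 ± 0.25 (adjusted p = 0.463). The middle probe gave -0.50 and -0.11 and passed in neither (adjusted p = 0.238 and 0.809). All 3 probes pointed down in both groups, and the mean of the probes in control offspring was -0.38 (adjusted p = 0.244).

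**Figure D2:**
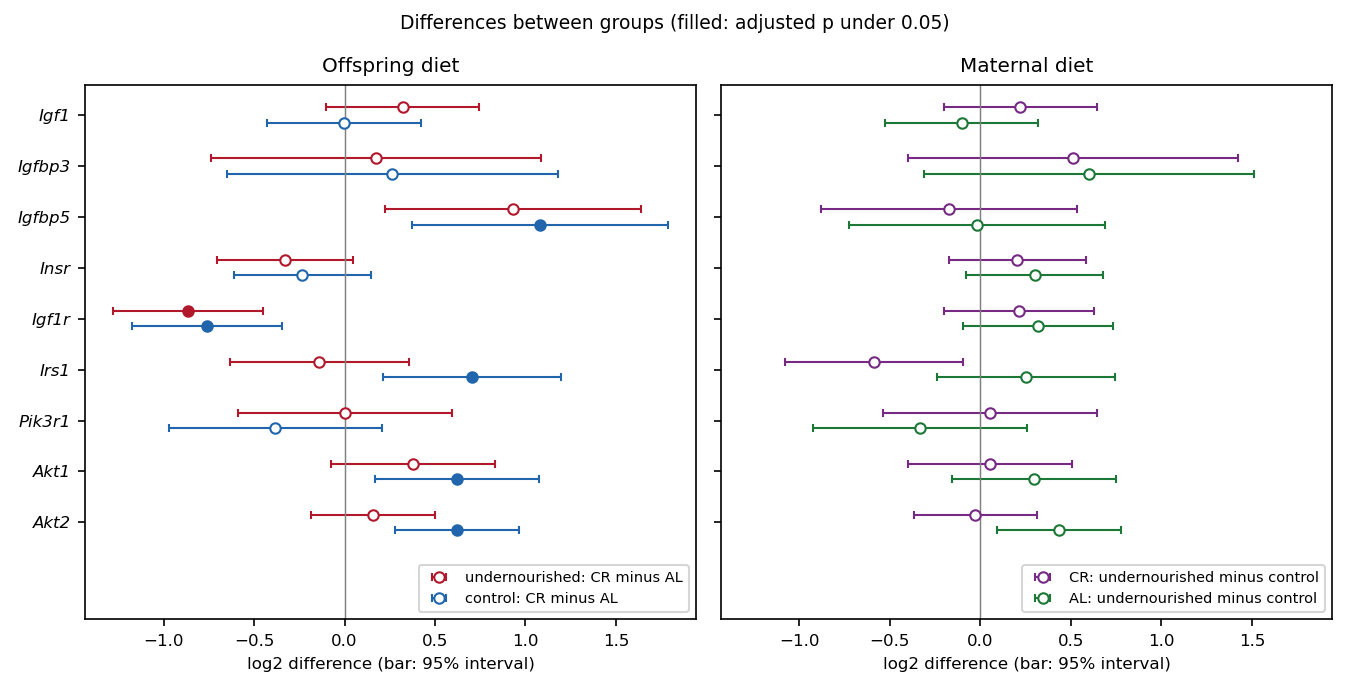
Log2 differences (horizontal axis) with 95% intervals for CR minus AL in undernourished and control offspring (left) and undernourished minus control in CR and AL offspring (right), filled where the adjusted p was under 0.05. Igf1r is filled in both groups on the left, Igfbp5, Irs1, Akt1 and Akt2 are filled in control offspring, and no point on the right is filled.

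Irs1 encodes the adaptor that couples both receptors to PI3K. Its brighter probe read 4.65, 3.88, 4.16 and 3.99 in undernourished CR, against 4.47, 4.09, 4.06 and 4.61 in undernourished AL, and these groups overlapped. It read 4.42, 4.39, 5.24 and 4.98 in control CR, against 3.62, 4.30, 4.06 and 4.24 in control AL, where every CR array lay above every AL array, as for 17.3% of all genes. Irs1 rose in control CR by 0.70 ± 0.23 or 1.63-fold (limma adjusted p = 0.0303), and was -0.14 ± 0.23 in undernourished CR (adjusted p = 0.709). With the values of the authors' deposited table the undernourished difference was 0.45 and was not called (adjusted p = 0.107). The difference between these responses was -0.84 ± 0.33 (limma adjusted p = 0.5), and was not called. The rise was not called without control AL replicate 1 (0.56, adjusted p = 0.1) or 3 (0.70, adjusted p = 0.0531), or without control CR replicate 3 (0.54, adjusted p = 0.0994) or 4 (0.63, adjusted p = 0.0802). The dimmer Irs1 probe did not show it, at -0.09 ± 0.21 (adjusted p = 0.763), and was called lower in undernourished CR, at -0.81 ± 0.21 (adjusted p = 0.013).

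Pik3r1 encodes p85 alpha, the regulatory subunit through which PI3K docks on IRS proteins. Its brightest probe averaged 0.53 ± 0.57 in undernourished CR, 0.52 ± 0.42 in undernourished AL, 0.47 ± 0.42 in control CR and 0.86 ± 0.11 in control AL (SD, n = 4 each). CR minus AL was 0.01 ± 0.28 in undernourished and -0.38 ± 0.28 in control offspring, and neither passed (limma adjusted p = 0.992 and 0.317). Of its 4 probes, which carry the same accession, the dimmest behaved differently. It read -2.35, -1.34, -2.16 and -1.40 in undernourished CR, against -1.37, -0.96, -0.75 and -1.18 in undernourished AL, and -1.77, -1.58, -2.02 and -2.02 in control CR, against -0.81, -0.68, -0.85 and -0.47 in control AL. It was called lower in both, at -0.75 ± 0.22 and -1.15 ± 0.22 (adjusted p = 0.0251 and 0.00121), while the other 3 were called in neither. The 2 middle probes gave -0.15 and -0.12 in undernourished offspring, so that only the brightest of the 4 was not below 0 there.

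Akt1 and Akt2 encode the AKT kinases, Akt2 being the form most closely tied to insulin-stimulated glucose uptake. Akt1 read 3.72, 3.78, 3.51 and 4.51 in undernourished CR, against 3.23, 3.32, 3.69 and 3.77 in undernourished AL, and 3.53, 4.20, 3.93 and 3.65 in control CR, against 3.11, 3.03, 3.32 and 3.36 in control AL. Akt2 read 3.73, 3.95, 3.77 and 3.64 in undernourished CR, against 3.27, 3.62, 3.86 and 3.71 in undernourished AL, and 3.75, 3.79, 3.84 and 3.82 in control CR, against 2.69, 3.28, 3.29 and 3.45 in control AL. For both genes every control CR array lay above every control AL array, as for 17.3% of all genes, and the undernourished groups overlapped. In control CR, Akt1 rose by 0.62 ± 0.21 or 1.54-fold (limma adjusted p = 0.036) and Akt2 by 0.62 ± 0.16 or 1.54-fold (adjusted p = 0.00846). In undernourished CR the differences were 0.38 ± 0.21 and 0.16 ± 0.16, and neither passed (adjusted p = 0.222 and 0.519). With the values of the authors' deposited table both were called in undernourished CR as well, Akt1 at 0.95 and Akt2 at 0.71 (adjusted p = 0.000268 and 0.000721). The difference between the responses of undernourished and control offspring was -0.24 ± 0.30 for Akt1 and -0.46 ± 0.23 for Akt2 in the interaction test, and neither was called (adjusted p = 0.79 and 0.528).

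The second Akt2 probe gave 0.67 ± 0.18 in control offspring and was also called (limma adjusted p = 0.00868). The second Akt1 probe gave 0.24 ± 0.18 and was not (adjusted p = 0.339). The Akt2 call held in all 16 fits that left out a single array. It was lost when both control AL arrays of slide 1, which had the highest brain markers, were left out (0.43, adjusted p = 0.0737), and with the brain index as a covariate (0.38, adjusted p = 0.14). Akt1 was not called without control AL replicate 1 (0.59, adjusted p = 0.0825) or 2 (0.56, adjusted p = 0.0928), or without control CR replicate 2 (0.50, adjusted p = 0.112) or 3 (0.59, adjusted p = 0.0815).

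The calls of Igfbp5, Irs1 and Akt1 in control offspring were also lost without both control AL arrays of slide 1, where the differences were 0.98, 0.61 and 0.49 (limma adjusted p = 0.133, 0.145 and 0.231). With the brain index as a covariate they were 1.04, 0.55 and 0.44 (adjusted p = 0.106, 0.202 and 0.259). Igf1r kept its call in control offspring under both of these fits. They are not separate checks, because the brain index was 1 and 0.92 on those control AL arrays and 0.23 to 0.35 on all others. It was 0.23 to 0.35 in undernourished AL and 0.25 to 0.33 in control CR. Apart from the slide 1 control AL arrays, this index therefore hardly separates AL from CR arrays. A further fit left out control AL replicates 1 to 3, undernourished AL replicate 3 and undernourished CR replicate 2, which had the highest skin marker medians. Only 1 control AL array remained, so its calls in control offspring are not read. The differences there were -0.79 for Igf1r, 0.67 for Igfbp5, 0.52 for Irs1, 0.46 for Akt1 and 0.35 for Akt2. The Igf1r call in undernourished offspring held in that fit.

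**Figure D3:**
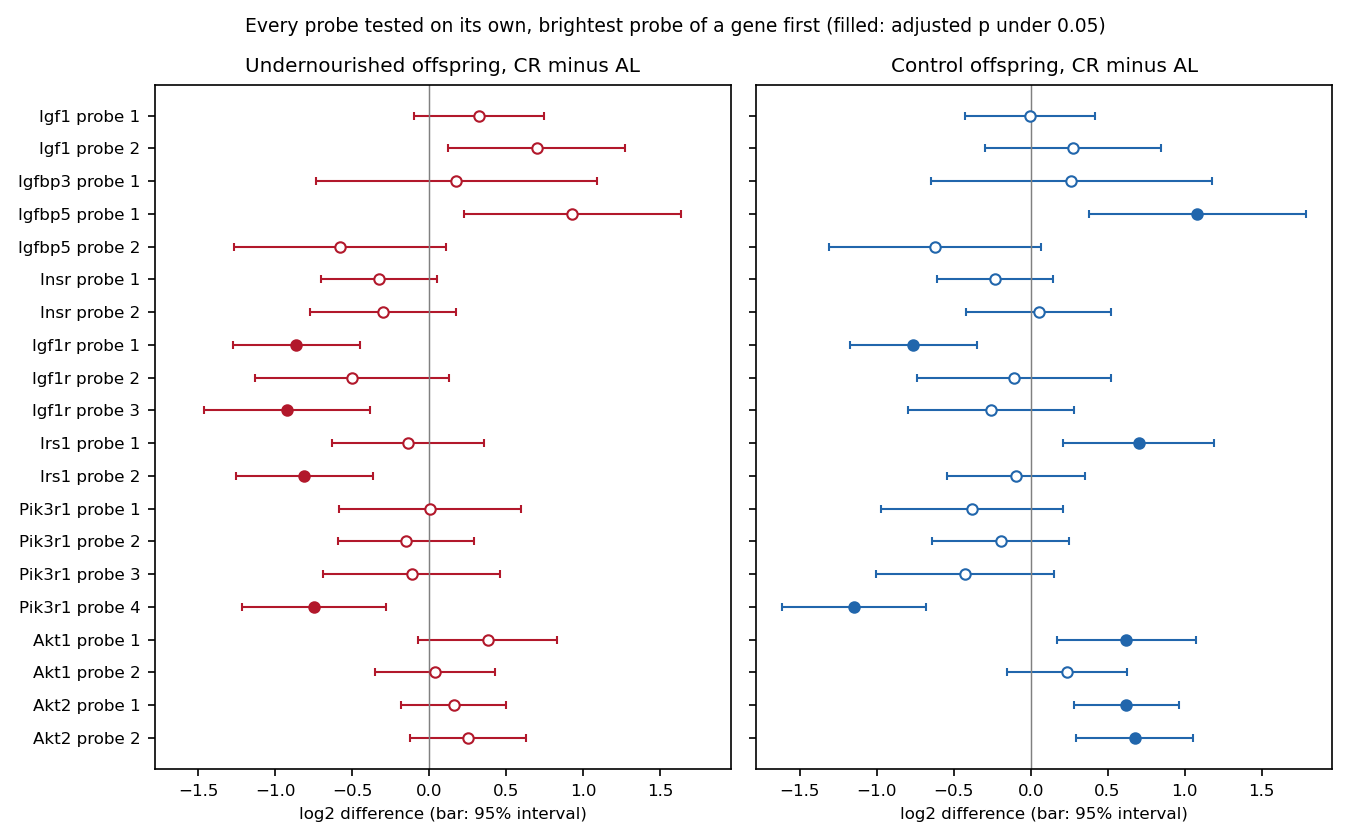
CR minus AL log2 difference (horizontal axis) with its 95% interval for each of the 20 probes tested on its own, in undernourished (left) and control offspring (right), filled where the adjusted p was under 0.05. The 2 Akt2 probes lie together, while those of Igfbp5 lie on opposite sides of 0 and the dimmest Pik3r1 probe lies apart from the other 3.

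Maternal undernutrition was examined within each offspring diet. In CR offspring the undernourished minus control differences ran from -0.59 for Irs1 to 0.51 for Igfbp3. In AL offspring they ran from -0.33 for Pik3r1 to 0.60 for Igfbp3. None was called, where 0% of genes were in CR offspring (0 genes, with 715 at an unadjusted p under 0.05 in limma) and 0.0322% in AL offspring (8 genes, with 4795). The differences largest for their error were those of Akt2 in AL offspring (0.43 ± 0.16, limma adjusted p = 0.171) and Irs1 in CR offspring (-0.59 ± 0.23, limma adjusted p = 1).

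Because both maternal groups lay on each slide, these differences could be taken within a slide, from 2 arrays against 2. Akt2 in AL offspring was 0.46 on slide 1 and 0.41 on slide 2. Irs1 in CR offspring was -0.14 on slide 3 and -1.03 on slide 4. For Igfbp5 in AL offspring the slides gave opposite signs, 0.55 and -0.59. The Akt2 difference was therefore of like size on both slides, while that of Irs1 came mainly from slide 4. Control AL arrays serve both the Akt2 comparison by maternal diet and that by offspring diet in controls, so these values are not separate observations.

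Of 84 further genes of the pathway, 82 were tested. In undernourished offspring 10 were called higher and 5 lower in CR, or 18.3%, with a median of 0.09 against -0.0035 over all genes, and in control offspring 23 were called higher and 4 lower, or 32.9%, with a median of 0.21 against 0.06. In either direction together, both shares lie close to the 20.3% and 32.3% of all genes. By direction, 12.2% were higher and 6.10% lower in undernourished CR, against 10.4% and 9.86% of all genes, and 28.0% were higher and 4.88% lower in control CR, against 17.2% and 15.1%. The calls in control offspring became 5 higher and 3 lower with the brain index as a covariate, 4 and 2 with the index of markers low on CR arrays, 6 and 3 without both control AL arrays of slide 1, and 58 and 3 with the values of the authors' deposited table. In undernourished offspring they became 48 higher and 3 lower with the authors' deposited table, and 17 and 10 with normexp. Over all genes, 4259 higher and 3749 lower in control offspring became 11383 and 2609 with the authors' values. They became 2002 and 2625 with the brain index, and 1347 and 1974 with the index of markers low on CR arrays. Without both control AL arrays of slide 1 they were 1916 and 2468. In undernourished offspring 2590 higher and 2449 lower became 10321 and 1527 with the authors' values, and 3011 and 10249 with normexp. None of the 82 was called by maternal diet or in the interaction.

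Of 11 ligands, binding proteins and their regulators, 1 rose and 2 fell in each comparison of the diets (27.3%, against 20.3% of all genes in undernourished and 32.3% in control offspring). Htra1, a secreted protease that cleaves IGF binding proteins, fell in undernourished CR (-0.99 ± 0.26) and control CR (-0.84 ± 0.26, limma adjusted p = 0.0161 and 0.023). In undernourished CR, Igfbp1 fell by 2.62 ± 0.59 (adjusted p = 0.00682). It read -5.57, -6.52, -6.45 and -5.76 on those arrays, against -1.54, -2.61, -4.47 and -5.18 in undernourished AL, and 3 of the 4 restricted arrays had it well above background. Undernourished AL replicates 1 and 2 were the highest, and the liver marker medians of those 4 AL arrays were -3.94, -4.36, -0.92 and -3.20. In control CR, Igfbp2 fell by 2.68 ± 0.54 (adjusted p = 0.00187). It stood at -3.94, -3.32, -3.34 and -3.60, against 0.72, 0.03, -1.83 and -2.40 in control AL, where the brain marker medians were 0.93, 0.74, -1.13 and -1.67. With the index of brain markers low on CR arrays as a covariate, Igfbp2 was at -0.92 and was not called (adjusted p = 0.056). Ghr, the growth hormone receptor, rose in control CR by 0.65 ± 0.19 (adjusted p = 0.0152). With the brain index as a covariate, Ghr was 0.39 and Htra1 -0.59 in control offspring, and neither was called (adjusted p = 0.205 and 0.21). Pappa2, a protease of IGF binding proteins, was at least 1.21-fold higher in undernourished CR than in undernourished AL, where no array was well above background (adjusted p = 0.0407). This direction depends on the background correction, since with normexp Pappa2 was called lower in undernourished CR (-0.31, adjusted p = 0.0433), and the call was kept in 10 of 16 fits that left out a single array.

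Of 10 further receptors and adaptors, 3 rose and 1 fell in undernourished CR (40%, against 20.3% of all genes). In control CR 2 rose and 0 fell (20%, against 32.3% of all genes in either direction and 17.2% higher). Sh2b2 and Sh2b1, adaptors of the activated receptors, rose in undernourished CR by 0.60 ± 0.20 and 0.48 ± 0.16 (limma adjusted p = 0.0448 and 0.0423) and in control CR by 0.98 ± 0.20 and 0.51 ± 0.16 (adjusted p = 0.00195 and 0.0208). Sos1, an activator of RAS, rose by 0.44 ± 0.15 in undernourished CR and Insrr, the insulin receptor-related receptor, fell by 0.58 ± 0.15. Of 7 other PI3K, PDK1 and AKT genes, none was called in undernourished CR (0%, against 20.3% of all genes). In control CR only Pik3cd was called (0.88 ± 0.27, limma adjusted p = 0.0225), or 14.3% against 32.3%. With the brain index, Sh2b1 was 0.45 and Pik3cd 0.95 in control offspring, and neither was called (adjusted p = 0.125 and 0.0728).

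Of 16 inhibitors, 3 rose and 1 fell in undernourished CR (25%, against 20.3% of all genes), and 6 rose and 1 fell in control CR (43.8%, against 32.3%). Cish, a SOCS-family inhibitor of growth hormone signalling, was the largest, at 1.88 ± 0.53 in undernourished and 2.06 ± 0.53 in control CR (limma adjusted p = 0.0223 and 0.00856). It read 2.19, 2.79, 2.40 and 2.89 in undernourished CR, against -1.22, 1.68, 1.54 and 0.73 in undernourished AL, and 1.90, 2.07, 3.08 and 2.31 in control CR, against 0.34, 0.54, -0.72 and 0.97 in control AL. Every CR array lay above every AL array of its own offspring group, as for 17.3% of all genes in control offspring. The share of all genes in undernourished offspring is not given here. Trib2, a pseudokinase of the Tribbles family, rose by 0.73 ± 0.17 and 0.90 ± 0.17 (adjusted p = 0.00861 and 0.00129), and its relative Trib1 rose in control CR by 1.005 ± 0.32 (adjusted p = 0.0258), a call lost with the brain index (0.76, adjusted p = 0.199). Ptprf, a receptor tyrosine phosphatase, fell by 0.65 ± 0.21 in undernourished and by 1.29 ± 0.21 in control CR (adjusted p = 0.0383 and 0.000402). Grb14, an adaptor that inhibits the insulin receptor, rose in undernourished CR by 0.68 ± 0.22 (adjusted p = 0.0399).

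Of 17 genes of the mTOR complexes and their outputs, 3 rose and 1 fell in undernourished CR (23.5%, against 20.3% of all genes) and 7 rose and 1 fell in control CR (47.1%, against 32.3%). Ddit4, which encodes the mTORC1 inhibitor REDD1, fell in both, by 2.27 ± 0.57 and 2.20 ± 0.57 (limma adjusted p = 0.0122 and 0.00849). It read 4.51, 5.33, 3.28 and 5.71 in undernourished CR, against 5.51, 7.24, 8.07 and 7.09 in undernourished AL, and 3.87, 4.81, 5.48 and 4.56 in control CR, against 6.06, 6.98, 7.22 and 7.25 in control AL. The control groups did not overlap, with CR lower as for 14.5% of all genes, and the undernourished groups did. Rps6kb1, the S6 kinase, rose by 0.77 ± 0.12 and 0.68 ± 0.12 (adjusted p = 0.000834 and 0.00088), Eif4e, which binds the mRNA cap, by 0.76 ± 0.17 and 0.69 ± 0.17 (adjusted p = 0.00733 and 0.00714), and Mapkap1, an mTORC2 subunit, by 0.58 ± 0.12 and 0.70 ± 0.12 (adjusted p = 0.00449 and 0.000728). With the brain index, Eif4e was 0.57 in control offspring and was not called (adjusted p = 0.0779).

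Of 13 AKT substrates and glucose-handling genes, none was called in undernourished CR (0%, against 20.3% of all genes). In control CR 3 rose and 0 fell (23.1%, against 32.3% of all genes in either direction and 17.2% higher). These were Gys1, muscle glycogen synthase (0.85 ± 0.21, limma adjusted p = 0.00748), Bad, a pro-apoptotic AKT substrate (0.49 ± 0.18, adjusted p = 0.049), and Gsk3a, a glycogen synthase kinase (0.30 ± 0.11, adjusted p = 0.0491). With the brain index they were 0.63, 0.57 and 0.22, and none was called (limma adjusted p = 0.101, 0.0898 and 0.266), and with normexp the sign of Bad turned (-0.032, adjusted p = 0.827). Of 8 genes of the ERK branch, none was called in undernourished CR (0%, against 20.3% of all genes). In control CR 3 rose and 0 fell (37.5%, against 32.3% of all genes in either direction and 17.2% higher). Among them were the MAP kinase kinases Map2k1 and Map2k2 (0.49 ± 0.17 and 0.42 ± 0.14, limma adjusted p = 0.0385 and 0.0297). With the brain index these 2 were 0.59 and 0.27, and neither was called (adjusted p = 0.0655 and 0.252).

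Of the 15 genes that the naming rule takes among those called in undernourished CR, 8 kept their call whichever single array was left out, and Sh2b2, Sos1 and Sh2b1 kept it in 3, 5 and 8 of 16 fits. Of the 20 it takes in control CR, 10 did, and Gsk3a and Bad kept it in 3 and 4. In control offspring 12 of these 20 lost their call both with the brain index and without both control AL arrays of slide 1. The brain index stood far higher on those arrays than on all others, so these fits are not separate checks. The 8 called in both fits were Igfbp2, Sh2b2, Cish, Trib2, Ptprf, Mapkap1, Rps6kb1 and Ddit4, and with the index of markers low on CR arrays Igfbp2 and Cish were also lost, leaving 6. With the 5 arrays of highest skin markers left out, none of those 20 genes kept its call in control offspring, and 5 of 15 did in undernourished offspring, namely Eif4e, Htra1, Igfbp1, Mapkap1 and Rps6kb1. In that fit Ghr was 0.075, Trib1 0.17 and Htra1 -0.32 in control offspring (adjusted p = 0.882, 0.84 and 0.525). Only 1 control AL array remains there, and its spread is taken from the other groups.

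**Figure D4:**
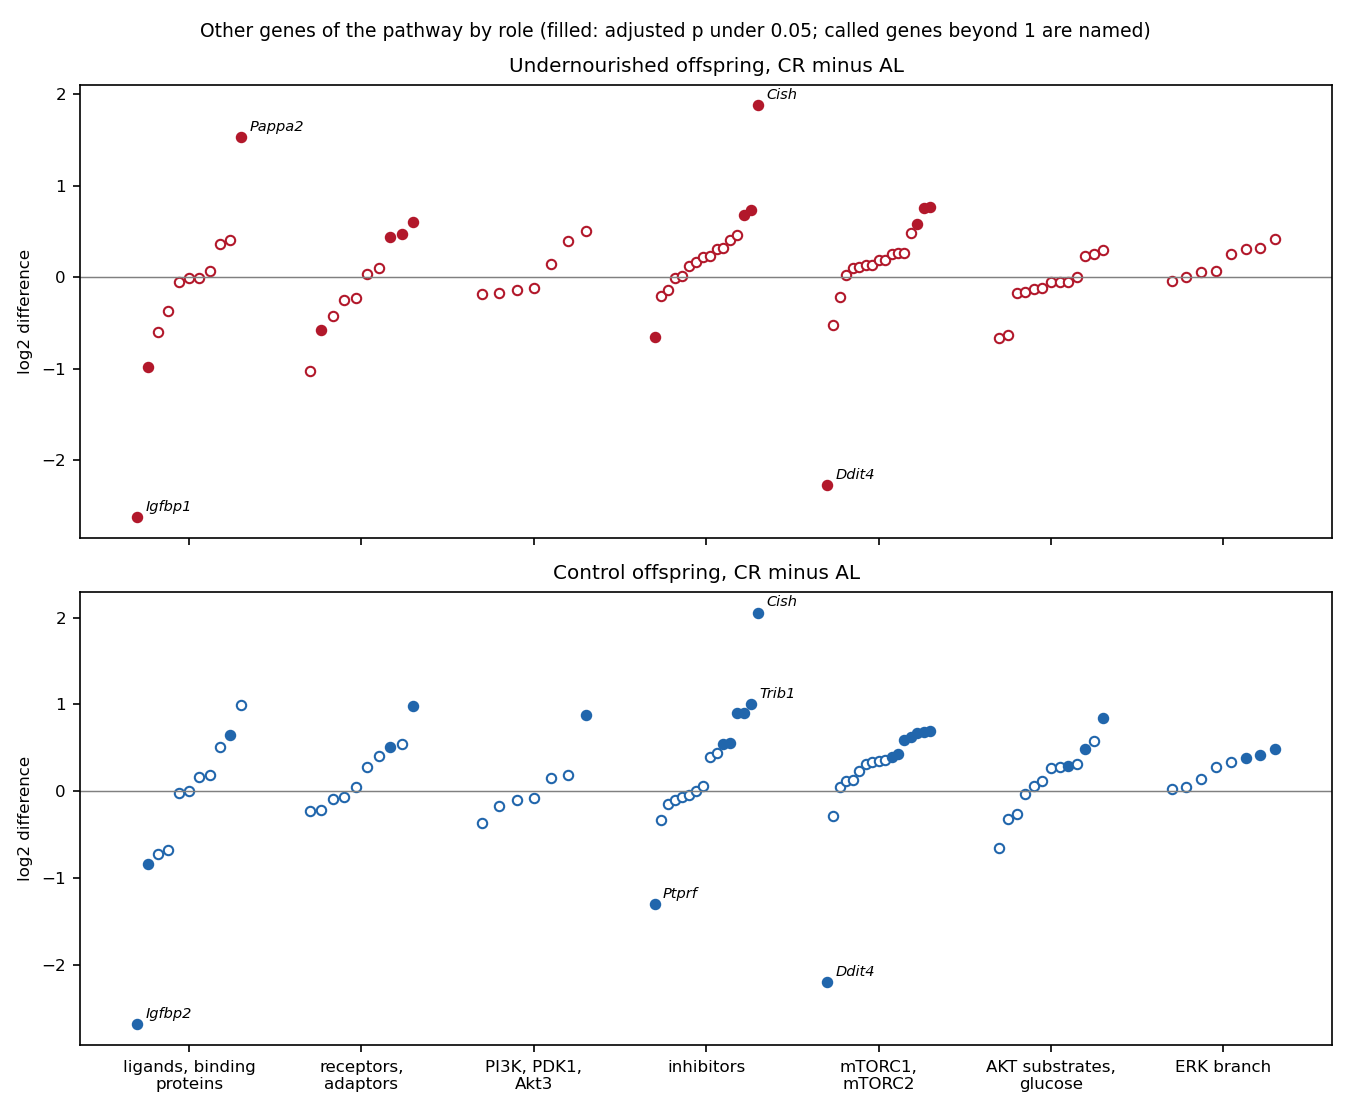
CR minus AL log2 difference (vertical axis) of the 82 other pathway genes by role, in undernourished (top) and control offspring (bottom), filled where the adjusted p was under 0.05. Cish lies highest and Ddit4 lies near -2 in both groups.

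By maternal diet the pathway genes with the smallest p-values were Sos1, Enpp1 and Mapk3 in CR offspring (0.41, 0.32 and -0.22, each with a limma adjusted p of 1) and Igf2r, Igfbp1 and Igfbp2 in AL offspring (0.61, 2.01 and -1.79, limma adjusted p = 0.154 to 0.155). In the interaction they were Igfbp2, Igf2r and Tbc1d1 (2.08, -0.63 and -0.74, limma adjusted p = 0.493 to 0.507). None was called.

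The genes whose signal followed a member most closely were taken by Pearson's r over arrays, as a description of arrays that share slides and depth of signal. Over the 16 arrays, Igf1 was closest to Gdf10, Ogn and Col14a1 (r = 0.84, 0.83 and 0.82), Igfbp5 to Rcbtb2, Plcd4 and Cc2d2a (0.92, 0.90 and 0.90), and Insr to Utp11, Mfap1a and Tmem71 (0.95, 0.94 and 0.94). Over the 8 CR arrays alone the 3 closest genes were others in each case, Rab34, Sec16b and Emilin2 for Igf1, Nek8, Camk1d and Colec11 for Igfbp5, and Slc25a13, Edem1 and Tent2 for Insr. Igf1r, named here after its values were seen, was closest to Tcp11l2, Klhl24 and Gabarapl1 over 16 arrays (0.97, 0.97 and 0.97), and Tcp11l2 was also among its 3 closest over the CR arrays (0.97).

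**Figure D5:**
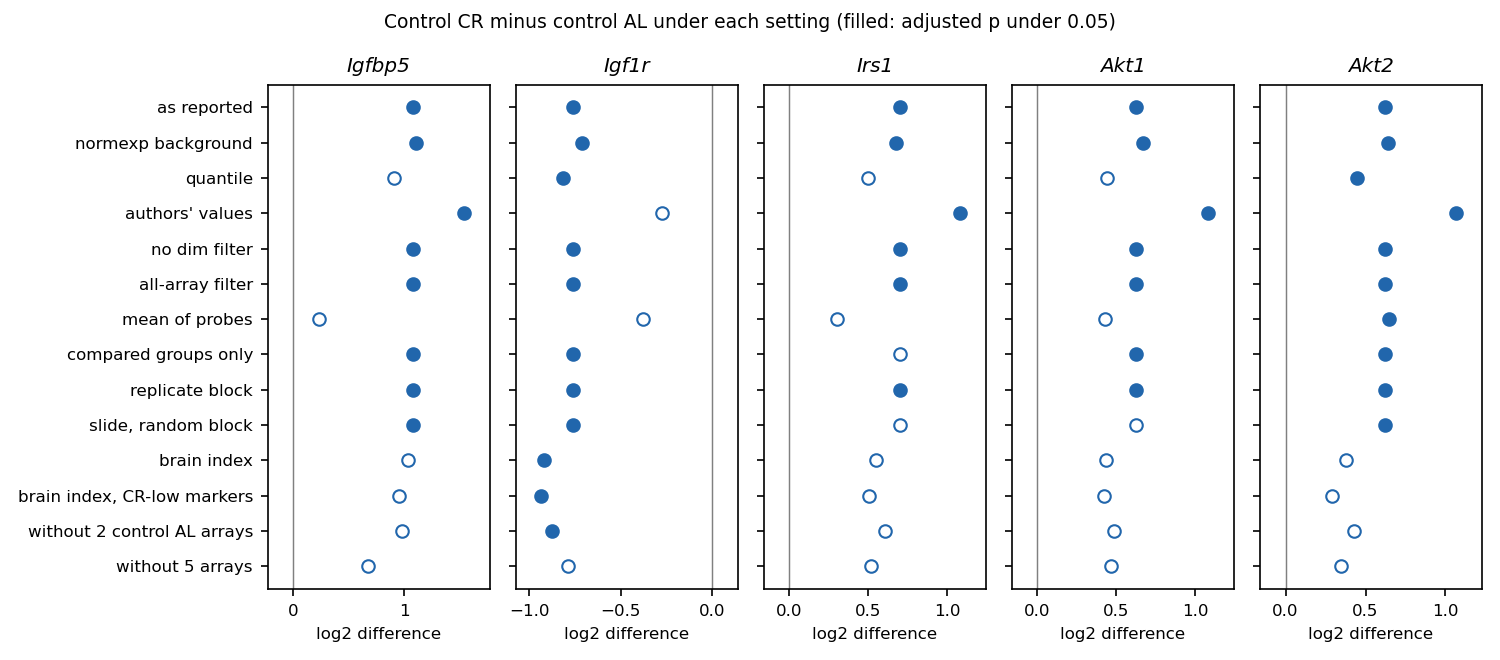
Control CR minus control AL log2 difference (horizontal axis, scaled separately for each gene) of the 5 called genes under each processing setting, filled where the adjusted p was under 0.05. All 14 values of each gene keep 1 direction. In the setting that leaves out 5 arrays, only 1 control AL array remains.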

How the data were processed

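Gene expression was measured on 16 one-colour Agilent arrays (Cy3) from 200 ng of total RNA per pool, isolated with Trizol and DNase-treated, per the labels' protocols. The authors deposited 1 scanner file per array, and the spot intensity used here, the processed signal, came from Agilent Feature Extraction 10.5.1.1, per the submitters' processing notes. The deposited intensity is background-subtracted and not normalized between arrays, per the file headers. The other deposited values used are each spot's flags (0 or 1) for background, saturation and outliers. CR intensities are stored to fewer digits than AL intensities. The authors' deposited log2 table served as an alternative, and how they normalized it is not stated in the labels or files. Its probe medians over arrays are 0, its column medians run from -0.101 to 0.0374, and a difference between 2 arrays was 0.816 of that in the scanner files (median slope over 120 pairs of arrays).

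From 45018 spots per array, controls and outlier spots (53 to 176) were dropped, spots of 1 probe were averaged, and 0 spots were flagged as saturated. The log2 intensity minus the array's 75th percentile (387 to 829) was used. A probe was kept where 4 or more arrays had it well above background (32081 of 41174), with the brightest probe for each gene. Accessions were named through RefSeq (GRCm38.p6): 24844 probes matched and 16330 kept the file's name. The share of spots well above background, 66.4% to 78.5%, and 4 arrays per group limit the precision.

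The test was that of limma 3.58.1 under R 4.3.3 (lmFit, then eBayes), 1 mean per group over 16 arrays, two-sided, with adjustment over 24828 genes. The 4 pairwise comparisons and the interaction were fitted, and the procedure was tested on simulated data. All members are named. From each pathway list up to 3 called genes in each direction with the largest difference are named, or the 3 with the smallest p where none was called. The values of 1 gene that this rule takes are not reported here. The members, lists, rules and alternatives were chosen with earlier results of these data known. The brain index is the mean linear signal of the brain markers of an array, and a second index uses the 13 of 21 markers not well above background on every CR array.

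Same-numbered arrays were checked for pairing by the correlation of their deviations from the group means. It was 0.113 to 0.440 over the 4 pairs of AL arrays, over 0.1 in each. Same-numbered AL arrays also share a slide, so this cannot show whether the numbers pair samples. The closest control AL array had the same number for 3 of the 4 undernourished AL arrays. The reported tests use no pairing, and a replicate block was an alternative. The correlation was 0.0174 to 0.228 in CR arrays. It was -0.117 to 0.0755 between control CR and control AL, and -0.145 to 0.0115 between undernourished CR and undernourished AL. In these sets the numbers are not taken to pair samples. The alternatives were background correction, quantile normalization, the authors' values, filters on dim probes, the probe chosen, the arrays in the fit, slide and replicate blocks, brain indices, and arrays left out.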

Additional observations from a re-analysis of the deposited data

Results flagged for a closer look

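Igf1 in undernourished CR muscle was -0.753 in replicate 3, while the other 3 arrays of the group stood between -1.39 and -1.29. The gap to the nearest array was 0.842 of the group's range, above Dixon's 95% critical value for 4 samples. This was 1 of 36 sets of 4 arrays examined, and chance alone marks about 1 in 20. On the same array the brain, skin and liver marker medians were -6.52, -3.28 and -3.89. Their part in the value was not tested.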

How the results depend on the processing

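Of the 9 genes, 5 were called in control offspring. This count became 1 without both control AL arrays of slide 1 and 1 with the mean of a gene's probes. It was 2 with quantile normalization, 2 with either brain index and 3 with slide as a random block. With either brain index the 2 called were Igf1r and Insr, so of the 5 only Igf1r kept its call. The count ranged from 2 to 5 when single arrays were left out. In undernourished offspring 1 of the 9 genes, Igf1r, was called. This count became 4 with the authors' values, with which 11848 of all 24828 genes were called. The 4 were Igf1, Igfbp5, Akt1 and Akt2, and Igf1r was not among them. The count was 2 with normexp, with no filter, with the filter on all 16 arrays and with the index of markers low on CR arrays. With single arrays left out it was 1 to 2. Other comparisons gave 0 in every fit.

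Over all genes, 8008 were called in control offspring (6183 to 9067 with single arrays left out), 13992 with the authors' values, 12342 with no filter, 12143 with normexp, 4627 with the brain index, 3321 with the index of markers low on CR arrays, 4384 without both slide 1 control AL arrays and 909 without 5 arrays. In undernourished offspring 5039 (3667 to 5851) became 11848, 10075 and 13260 with the authors' values, no filter and normexp. Of called genes, 51.4% were higher in undernourished and 53.2% in control CR, against 87.1% and 81.4% with the authors' values, 62.4% and 62.9% with quantile normalization, 28.8% and 35.3% with no filter, and 22.7% and 33.9% with normexp. By maternal diet in AL offspring, 8 genes (2 to 2319, the highest without control AL replicate 4) became 1969 with slide as a fixed block, 16 with quantile normalization, 13 with slide as a random block, 5 with either brain index, 3 without both slide 1 control AL arrays, 2 with the filter on all 16 arrays, 1 without 5 arrays, and 0 with the authors' values, normexp, only the groups compared or the replicate block on AL arrays alone. In CR offspring single arrays left out gave 0 to 0. The 1 interaction call (0 to 91, the highest without control AL replicate 4) became 0 with the authors' values, normexp, the filter on all 16 arrays, the replicate block, the index of markers low on CR arrays, or without both slide 1 control AL arrays. The replicate block in the joint fit called 5 of the 9 genes in control and 1 in undernourished offspring, and changed no member's call.

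Among called values, or with a call under the alternative, signs turned for Bad in control offspring with normexp (-0.032, adjusted p = 0.827), Pappa2 in undernourished offspring with normexp (-0.31, adjusted p = 0.0433), Igfbp5 and Irs1 in control offspring by their dimmer probes (-0.62 and -0.094) and Pik3r1 in undernourished offspring by its dimmest probe (-0.75). Differences by offspring diet that were called in neither fit also changed sign, with the authors' values for Insr (0.24 in undernourished and 0.27 in control offspring), Irs1 in undernourished (0.45), Igf1 in control (0.36) and Pik3r1 in control offspring (0.062). Near 0, Pik3r1 in undernourished offspring turned in 6 of 13 settings, 5 of 16 fits without an array and with all 3 other probes, and Igf1 in control offspring in 3, 4 and 1. Igfbp3 turned with both brain indices in control offspring and in 2 fits without an array in undernourished offspring, as did the second probes of Insr in control (0.052) and Igfbp5 in undernourished offspring (-0.58). The causes were not tested. Each probe on its own, the index of markers low on CR arrays and the replicate block on AL arrays alone were chosen after seeing the data. Normexp used median spot signals, and at 34 spots whose local background was more than 20 above the spot the array's median background. Adding probes by the file's gene name was not run, because the files used here hold no such column.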
